A study of Homo sapiens with 6 samples.

Results

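Cadherins hold epithelial cells together, and the 10 genes described here encode 3 classical cadherins, 2 catenins that bind their tails, the intermediate filament protein vimentin and 4 transcription factors of epithelial-mesenchymal transition (EMT). They were chosen by name as CDH1, CDH2, CDH3, CTNNB1, CTNND1, VIM, SNAI1, SNAI2, ZEB1 and ZEB2, and all 10 were among the 33451 genes listed in the counts of RNA-seq reads per gene. The cells were MDA-MB-453, an established human breast cancer cell line. One group (3 libraries) was grown for 5 days with 100 nM 25(OH)D, the vitamin D metabolite that circulates in blood, and the other (3 libraries) for the same time with 0.1% alcohol, the solvent, alone. Both groups were of this single line, with no genetic change and no other agent. The question put by this comparison was how the mRNA of cell-cell adhesion and EMT genes differed after the vitamin D metabolite.

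Classical cadherins span the cell membrane and bind the same kind of cadherin on the next cell in the presence of calcium. Their tails bind beta-catenin, which connects to actin through alpha-catenin, and p120 catenin, which holds the cadherin at the surface. In EMT, epithelial cells lose E-cadherin and gain N-cadherin and vimentin, and the repressors SNAIL, SLUG, ZEB1 and ZEB2 bind the E-box, a short DNA motif, in the promoter of the E-cadherin gene. In the breast, E-cadherin joins luminal cells to one another and P-cadherin is typical of the myoepithelial layer.

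After 25(OH)D, the mRNA of N-cadherin (CDH2) fell 2.83-fold, while that of E-cadherin (CDH1) rose 1.27-fold and those of the catenins CTNND1 and CTNNB1 rose 1.20-fold and 1.18-fold. ZEB1, a repressor of E-cadherin, rose 2.19-fold in the same libraries. VIM had at most 32 counts in any library, and SNAI1, SNAI2 and ZEB2 had at most 16. In cultures measured in bulk, fewer cells that express a gene and less RNA per cell cannot be told apart. Of the 10 genes, 7 passed the low-count filter, and of these 4 were higher and 1 was lower at an adjusted p under 0.05 in the quasi-likelihood test of edgeR, with p adjusted after Benjamini and Hochberg over 18183 genes. Across all genes tested, 33.8% passed in either direction, 17.3% higher and 16.5% lower, and among genes with a mean of at least 100 counts the share was 42.3%. CDH2 and ZEB1 also passed the limits of the study, an absolute log2 fold change over 1 with an unadjusted p under 0.05, which 6.65% of all genes passed (4.02% higher and 2.63% lower). In 6 of the 7, all but VIM, the 25(OH)D libraries lay wholly to one side of the control libraries, against 45.7% of all genes. The median log2 fold change was 0.23 over the 7 genes and -0.011 over all genes.

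The libraries held between 33268860 and 40928176 counts. A level in CPM is the count scaled by the library total and its TMM factor. A level in RPKM is scaled by the library total and the length of the gene and is used wherever genes are compared with each other, so that a long gene does not look more abundant. Mitochondrial genes took between 7.85% and 7.99% of control counts and between 8.89% and 9.24% of 25(OH)D counts, and the part of this difference in the results was not tested. The luminal markers ERBB2, FOXA1 and KRT8 passed the filter. Of the fibroblast markers, 5 of 6 had at most 10 counts in every library. The exception was FBLN1, which fell with a log2 fold change of -1.35 (adjusted p = 7.46e-05, edgeR), and the summed level of the list was between 3.83 and 5.45 CPM in control and between 1.64 and 2.27 CPM in 25(OH)D. The basal markers summed to between 6.10 and 7.39 CPM in control and between 5.05 and 6.46 CPM in 25(OH)D. Of these markers TP63 fell, from 12, 26 and 19 counts to 3, 2 and 2. KRT14, below the filter, went the other way with 4, 6 and 1 counts in control and 24, 8 and 12 in 25(OH)D, and KRT5 had 4, 2 and 10 against 14, 18 and 3. The endothelial list summed to at most 1.22 CPM and the leukocyte list to at most 0.624 CPM in any library. The part of the fibroblast and basal markers in the results for the cadherins was not tested.

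CDH2 and ZEB1 had the largest fold changes of the 7 genes tested, and a stretch before a start of each is shown for that reason. The RefSeq table used here (GRCh38.p14) gave windows for 5 of the 10 genes, namely CDH2, CTNNB1, VIM, ZEB1 and ZEB2, with 12 starts in all, and the 250 bases before each start were searched. The promoters of CDH1, CDH3, CTNND1, SNAI1 and SNAI2 were not analysed here. Printed are the CDH2 window (chr18:28036642-28036891, minus strand) and the ZEB1 window with an E-box (chr10:31318167-31318416, plus strand) that hold no exon base of their own gene in the authors' annotation, while the ZEB1 window lies in exons of the antisense gene ZEB1-AS1. The printed CDH2 window lies inside the gene, which spans 27950966 to 28177446, and so stands before an internal start. Its other window (chr18:28177131-28177380), near the first base of the gene, was searched but holds exon bases and is not printed. Capitals mark the E-box, CACCTG or its reverse complement CAGGTG.
CDH2: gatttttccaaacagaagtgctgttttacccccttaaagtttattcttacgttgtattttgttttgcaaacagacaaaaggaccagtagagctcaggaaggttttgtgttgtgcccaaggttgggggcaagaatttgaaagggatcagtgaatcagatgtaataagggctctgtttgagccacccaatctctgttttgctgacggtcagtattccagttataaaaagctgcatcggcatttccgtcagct
ZEB1: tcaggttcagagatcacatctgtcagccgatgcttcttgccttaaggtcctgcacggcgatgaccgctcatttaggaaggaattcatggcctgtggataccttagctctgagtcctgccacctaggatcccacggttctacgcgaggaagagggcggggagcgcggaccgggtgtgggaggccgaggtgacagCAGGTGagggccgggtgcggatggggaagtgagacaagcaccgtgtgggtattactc
The E-box in this ZEB1 window begins 57 bases before the start. Another of the 7 ZEB1 windows held the motif at 242 and at 85 bases before its start, and the windows of CDH2, CTNNB1, VIM and ZEB2 held none. Over 35116 RefSeq windows of this length, 17.5% held it. The motif DR3, a direct repeat of AGGTCA with 3 bases of any kind between and of the type the vitamin D receptor binds, stood in 2 of all windows on either strand and in 0 of the 12 windows of these genes. A match is a run of letters and not a measured site.

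In the control cells the catenins were far more abundant than the cadherins, and the EMT genes were the lowest. CTNND1 had 27.8 ± 0.225 RPKM (SD, n = 3), more than 90.6% of the genes tested. CTNNB1 followed with 9.23 ± 0.172 RPKM, above 75.5% of genes. Among the cadherins, CDH1 came first with 3.31 ± 0.179 RPKM, close to the middle of all genes (52.5% were lower). CDH2 had 1.76 ± 0.129 RPKM and CDH3 0.567 ± 0.0347 RPKM. ZEB1, with 0.197 ± 0.0129 RPKM, and VIM, with 0.139 ± 0.0241 RPKM, lay above only 7.69% and 5.21% of the genes tested. In this order each gene was apart from the next over the 3 control libraries down to SNAI2, at 0.0531 ± 0.00962 RPKM, and the libraries of SNAI1 and ZEB2 overlapped. With 25(OH)D the first 7 places were the same. CDH2 came down to 0.603 ± 0.0390 RPKM, closer to CDH3 at 0.464 ± 0.0635 RPKM and ZEB1 at 0.420 ± 0.0377 RPKM, and the ranges of CDH3 and ZEB1 overlapped.

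**Figure D1:**
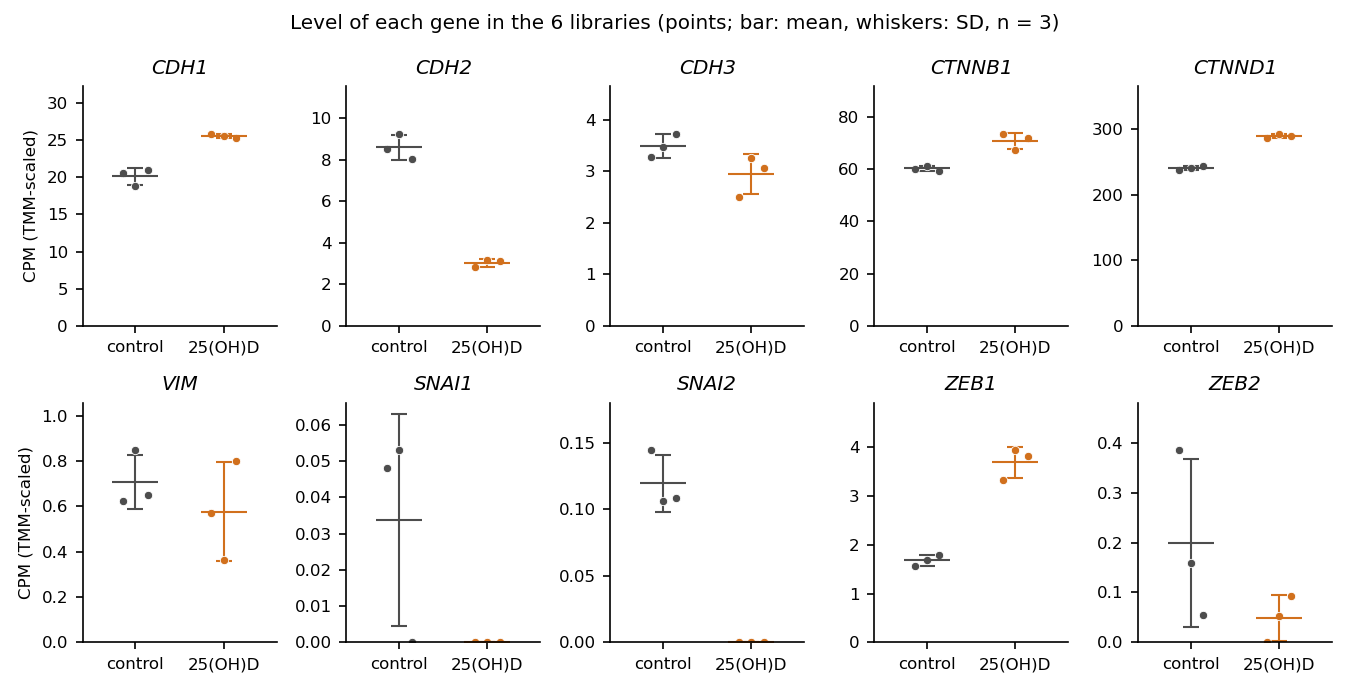
Level of each of the 10 genes in CPM (linear axis from 0, own scale per panel) in 3 control libraries (grey) and 3 25(OH)D libraries (orange); points are libraries, the bar is the mean and the whiskers the SD. CDH2 libraries lie between 8.04 and 9.23 CPM in control and between 2.82 and 3.15 CPM with 25(OH)D, ZEB1 moves the other way, and SNAI1, SNAI2 and ZEB2 rest on a handful of reads.

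Among the 7 genes tested, the largest change was that of CDH2, which encodes N-cadherin, the cadherin of neural and mesenchymal cells (chromosome 18, 27950966 to 28177446, minus strand of GRCh38). Its libraries held 355, 349 and 296 counts in control and 99, 121 and 102 counts in 25(OH)D, which is 8.53, 9.23 and 8.04 CPM against 2.82, 3.15 and 3.13 CPM. The groups were thus widely separated and their libraries close together. The log2 fold change was -1.50 (standard error 0.125, 95% interval -1.77 to -1.23, adjusted p = 3.74e-07, edgeR). Leaving out any 1 library gave values between -1.54 and -1.44. On opposite strands, 136 of the 4950 exon bases of CDH2 are shared with AC015933.2, which had at most 7 counts in any library. Over the 6 libraries, the genes closest to CDH2 in pattern, by the root mean square distance of centred log2 CPM, were IL1R1 at 0.0708, DSP at 0.0865 and RP11-74C13.4 at 0.0901, and all 6 libraries enter this distance, so it largely reflects the difference between the groups.

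CDH1 encodes E-cadherin, the main cadherin of epithelia (chromosome 16, 68737225 to 68835548, plus strand). It had 857, 713 and 774 counts in control and 908, 982 and 824 in 25(OH)D, which is 20.6, 18.9 and 21.0 CPM against 25.8, 25.5 and 25.3 CPM. Each 25(OH)D library was above each control library, by a smaller step than for CDH2. The log2 fold change was 0.34 (standard error 0.0690, 95% interval 0.19 to 0.49, adjusted p = 0.00139, edgeR). Its exons share 347 bases with those of RP11-354M1.2, which lies on the opposite strand and had a log2 fold change of 0.35 (adjusted p = 0.0773), and since the sources do not state whether strand was used in counting, reads of these genes cannot be told apart there. CDH3, which encodes P-cadherin, had 3.27, 3.46 and 3.72 CPM in control and 2.50, 3.25 and 3.07 CPM in 25(OH)D. All control libraries were higher, but the closest pair, at 3.27 and 3.25 CPM, nearly met and the test did not call CDH3 (log2 fold change -0.24, 95% interval -0.60 to 0.11, adjusted p = 0.294, edgeR). CDH3 lies at 68636189 to 68722616 on the plus strand of chromosome 16, next to CDH1, and shares 694 exon bases with RP11-615I2.2 on the opposite strand.

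Within each library, CDH1 made up 59.7%, 55.8% and 60.5% of the summed RPKM of the 3 cadherins in control and 81.2%, 78.1% and 78.5% in 25(OH)D. CDH2 made up between 28.9% and 34.1% in control and between 11.0% and 12.1% in 25(OH)D, while CDH3 held between 9.39% and 10.6% and between 7.79% and 9.85%. The ratio of CDH1 to CDH2 in RPKM went from 1.94, 1.64 and 2.10 to 7.35, 6.50 and 6.47, which restates both changes in a single value and was not tested. The sum of the 3 cadherins was 5.64 ± 0.0633 RPKM in control and 5.14 ± 0.0997 RPKM in 25(OH)D (SD, n = 3 each), and with TMM factors it was 5.56 ± 0.0784 and 5.22 ± 0.0700. The composition therefore differed more than the total.

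**Figure D2:**
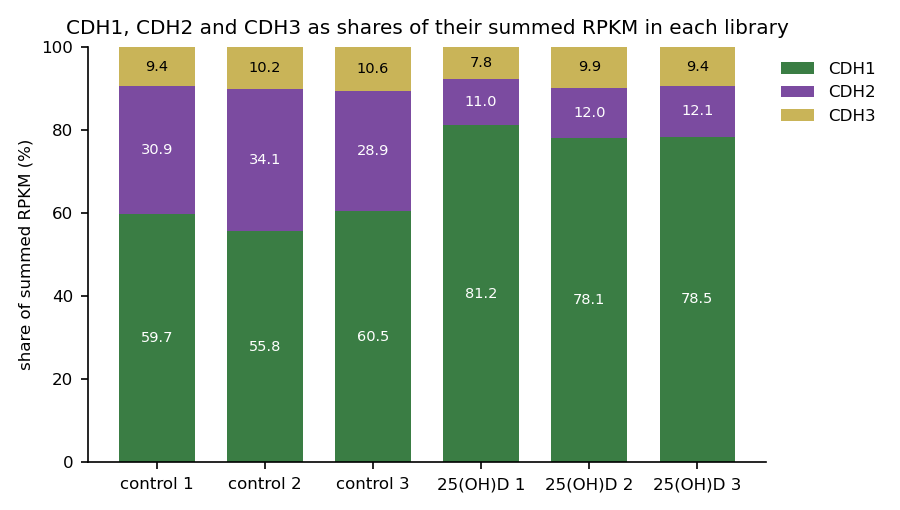
Share of CDH1 (green), CDH2 (purple) and CDH3 (yellow) in their summed RPKM, in percent, for each of the 6 libraries. In the 25(OH)D libraries CDH1 takes between 78.1% and 81.2%, against at most 60.5% in control, and the part of CDH2 is smaller.

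Both catenins rose, by similar small steps. CTNND1 encodes p120 catenin (chromosome 11, 57753243 to 57819546, plus strand) and had 238, 242 and 244 CPM in control and 286, 293 and 289.5 CPM in 25(OH)D. The groups were far apart relative to the spread of their libraries, with SDs of 2.69 and 3.43 CPM. The log2 fold change was 0.26 (standard error 0.0353, 95% interval 0.19 to 0.34, adjusted p = 4.24e-05, edgeR). CTNND1 shares 321 of its 8798 exon bases with the readthrough gene TMX2-CTNND1 and 289 with RP11-691N7.6 on the same strand, and with the counts of all 3 genes summed the log2 fold change was 0.23. CTNNB1 encodes beta-catenin, which also acts in the nucleus in WNT signalling (chromosome 3, 41194837 to 41260096, plus strand). It had 60.1, 61.1 and 59.4 CPM in control and 73.3, 67.4 and 71.7 CPM in 25(OH)D, without overlap. Its log2 fold change was 0.23 (standard error 0.0505, 95% interval 0.13 to 0.34, adjusted p = 0.00227, edgeR). Set against E-cadherin within each library, CTNND1 was 8.42 ± 0.503 times as abundant in RPKM in control and 7.96 ± 0.154 times in 25(OH)D, and CTNNB1 2.80 ± 0.205 and 2.59 ± 0.106 times (SD, n = 3 each). The first ratio was slightly lower in each 25(OH)D library (7.78 to 8.06) than in each control library (at least 8.13), and neither ratio was tested.

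ZEB1, a zinc finger factor that represses epithelial genes, was the only one of the 4 EMT factors among the 10 genes with enough reads for the test (chromosome 10, 31318495 to 31529814, plus strand). It had 65, 64 and 66 counts in control and 117, 151 and 124 in 25(OH)D, or 1.56, 1.69 and 1.79 CPM against 3.33, 3.93 and 3.81 CPM. All 25(OH)D libraries were above all control libraries, although at a level that stayed low, at 0.420 RPKM against the 4.07 RPKM of CDH1. The log2 fold change was 1.13 (standard error 0.176, 95% interval 0.76 to 1.51, adjusted p = 1.60e-04, edgeR), and it lay between 1.09 and 1.21 with each library left out. The antisense gene ZEB1-AS1, which shares 366 exon bases with ZEB1, had 32, 26 and 10 counts in control and 8, 19 and 28 in 25(OH)D, with overlapping groups (log2 fold change -0.15, adjusted p = 0.853).

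SNAI1, SNAI2 and ZEB2 had almost no reads. SNAI2, which encodes SLUG, had 6, 4 and 4 counts in control and 0 in each 25(OH)D library. Taking 3 counts over the whole group as the most that a count of 0 allows, and the 14 control counts as exact, it was at least 4.26-fold lower. This value leaves out the counting error of the control group and the spread between libraries, so the true limit is looser. Its groups were apart, which gives p = 0.1 in a two-sided exact permutation test, the smallest that 3 libraries against 3 can give, and without the low-count filter edgeR gave an adjusted p of 0.0751. ZEB2 had 16, 6 and 2 counts in control and 0, 2 and 3 in 25(OH)D. The groups overlapped (p = 0.2 by the same exact permutation test), and 16 of its 24 control counts came from replicate 1. The ratio of control to 25(OH)D over the summed counts was 4.38, with an exact 95% counting interval of 1.64 to 14.7 that leaves out the spread between libraries. SNAI1, which encodes SNAIL, had 2, 2 and 0 counts in control and 0 in the others, and a difference was not detectable at this depth (p = 0.4, exact permutation test). VIM, the mesenchymal intermediate filament gene, had 0.624, 0.846 and 0.652 CPM in control and 0.569, 0.364 and 0.798 CPM in 25(OH)D. The groups overlapped, and the log2 fold change of -0.30 had a 95% interval from -1.12 to 0.52 (adjusted p = 0.588, edgeR), which reaches past the limit of -1. It ranged between -0.59 without 25(OH)D replicate 3 and -0.045 without 25(OH)D replicate 2. On the opposite strand, VIM shares 641 of its 5158 exon bases with VIM-AS1 and 619 with RP11-124N14.3, which had at most 11 and 9 counts in any library.

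**Figure D3:**
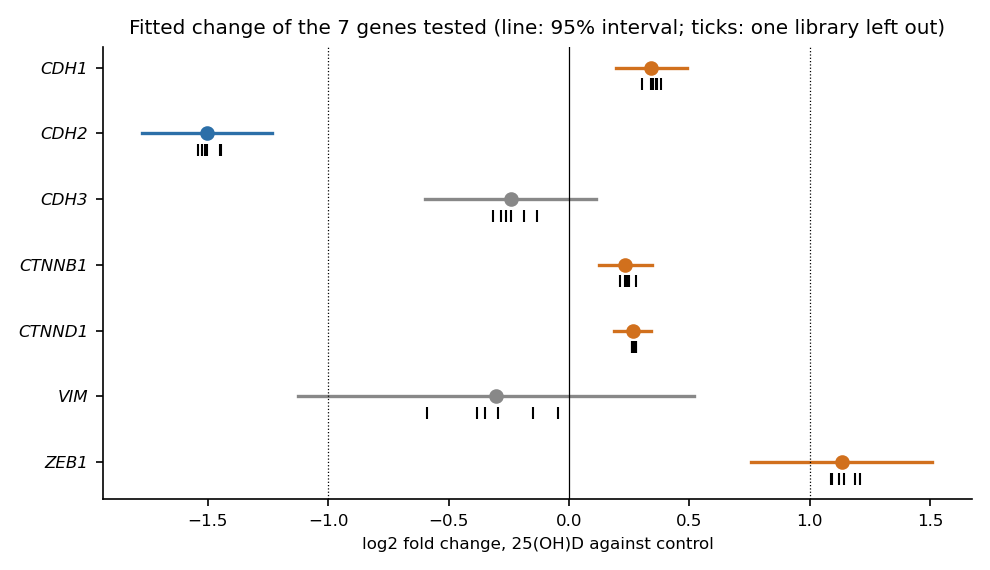
Log2 fold change of 25(OH)D against control for the 7 genes tested, with 95% intervals from edgeR (lines), the estimates with each library left out (black ticks) and the limits of -1 and 1 (dotted). Orange marks genes called higher, blue lower and grey not called: CDH2 at -1.50 and ZEB1 at 1.13 lie beyond the limits, and the intervals of CDH3 and VIM cross 0.

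The other genes of these pathways were taken from 9 lists, which name 105 genes, of which 65 passed the filter. The lists were drawn up from textbook roles, but with earlier results of these data known. Their shares of called genes therefore describe the lists and were not tested against those of all genes. Of the 65, 17 were higher (26.2%, against 17.3% of all genes) and 17 lower (26.2%, against 16.5%), and the remaining 31 were not called. Among other type I and type II cadherins, 11 of 15 were listed and 3 were tested. Only CDH7 among these passed, falling from 106, 113 and 76 to 32, 38 and 31 counts, with a log2 fold change of -1.41 (adjusted p = 2.49e-04, edgeR), so it moved in the direction of CDH2. Among 14 other catenins and adherens junction partners tested, 5 were higher (35.7%) and 4 lower (28.6%), against 17.3% and 16.5% of all genes. CTNNA1, the alpha-catenin that ties the complex to actin, rose from 320.4 ± 3.99 to 401 ± 3.61 CPM (SD, n = 3 each; log2 fold change 0.32), by about as much as CDH1 and the catenins above. PLEKHA7, which binds p120 catenin and anchors microtubules at the junction, rose by 0.51 on the log2 scale. CTNND2, the delta-catenin best known from neurons, fell from 20.8 ± 1.02 to 11.5 ± 0.695 CPM (log2 fold change -0.86), opposite to its relative CTNND1. LIMA1, an actin-binding protein of the junction, fell as well (log2 fold change -0.40). The others of this list called lower were PKP4 with -0.33 and JUP with -0.21 (adjusted p = 4.17e-05 and 0.00959, edgeR).

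Of the genes that handle beta-catenin, those of its destruction complex changed in both directions, and those called among its nuclear partners and feedback targets were lower. In the destruction complex, 2 of 9 genes tested were higher (22.2%, against 17.3% of all genes) and 2 lower (22.2%, against 16.5%). AXIN1, the scaffold, and GSK3B, the kinase, fell with log2 fold changes of -0.26 and -0.21. BTRC and FBXW11, the F-box proteins that mark beta-catenin for degradation, rose with 0.25 and 0.30. BTRC lost its call without control replicate 2 (adjusted p = 0.0517), and FBXW11 lost it without control replicate 3 (adjusted p = 0.1004) and without 25(OH)D replicates 1 (0.0769) and 2 (0.0699). Of 7 nuclear partners tested, 2 were lower (28.6%, against 16.5% of all genes), the coactivator BCL9L with -0.36 and PYGO2 with -0.16. PYGO2 lost its call without control replicates 1 (adjusted p = 0.192) and 2 (0.0767) and without 25(OH)D replicates 1 (0.121) and 2 (0.153). Of 4 feedback targets of beta-catenin tested, 2 were lower (50%, against 16.5% of all genes) and 0 were higher. Those lower were RNF43 with -0.54 and ZNRF3 with -0.73, ligases that remove WNT receptors. AXIN2 (log2 fold change -0.15, adjusted p = 0.368) and NKD1 (0.046, adjusted p = 0.454) were not called by edgeR.

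**Figure D4:**
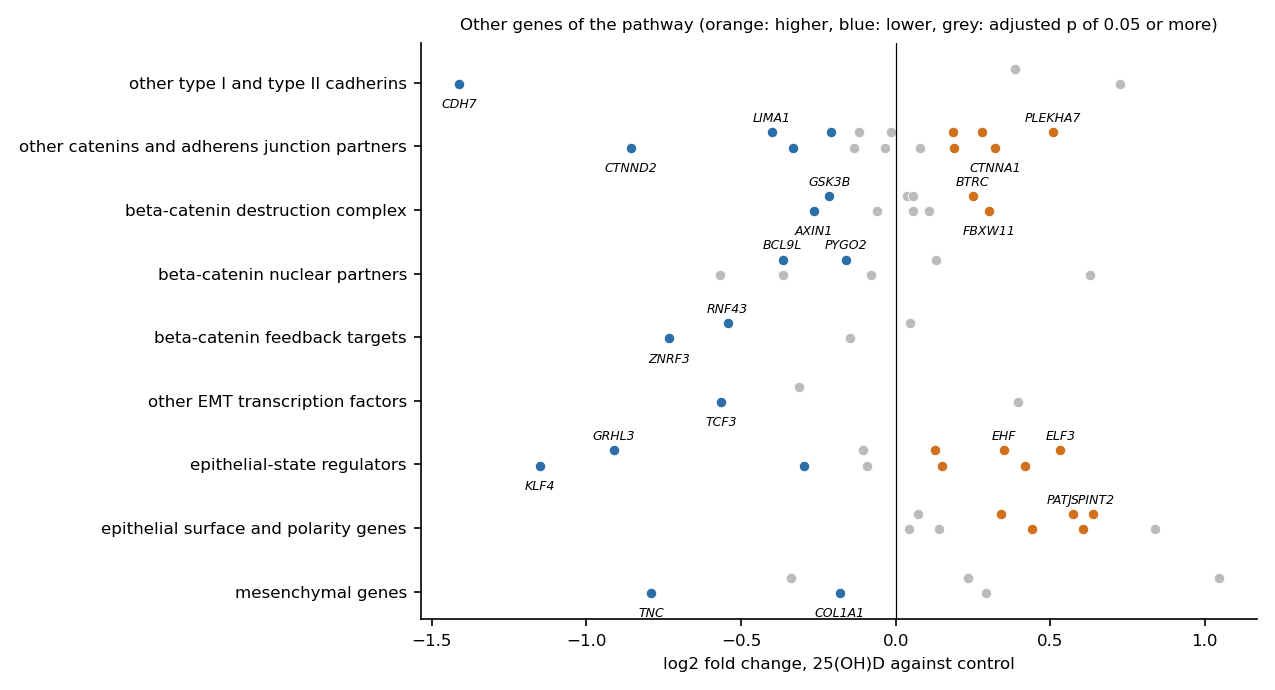
Log2 fold change of 25(OH)D against control (horizontal axis) for the tested genes of the 9 lists (rows), each point a gene, with orange for higher, blue for lower and grey for an adjusted p of 0.05 or more. In the epithelial surface list 5 genes are orange and 0 blue, in the mesenchymal list 2 are blue and 0 orange, and CDH7 and KLF4 are the called genes beyond a log2 fold change of -1. Of all genes tested, 17.3% were called higher and 16.5% lower.

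Genes of the epithelial state were described by 2 lists. Of 9 epithelial surface and polarity genes, all tested, 5 were higher (55.6%, against 17.3% of all genes) and 0 lower (against 16.5%). Among all genes with a mean of at least 100 counts, 42.3% were called in either direction. The median log2 fold change of the 9 was 0.44 against -0.011 over all genes. SPINT2, an inhibitor of membrane proteases, rose from 212 ± 7.78 to 330.5 ± 13.7 CPM (SD, n = 3 each; log2 fold change 0.64), and PATJ, a polarity protein whose gene ZEB1 is known to repress, rose from 121 ± 3.90 to 180 ± 2.70 CPM (log2 fold change 0.57, adjusted p = 7.45e-08, edgeR). ZEB1 rose in the same libraries, and a link between these changes was not tested. Of 10 epithelial transcription and splicing regulators tested, 5 were higher (50%) and 3 lower (30%), against 17.3% and 16.5% of all genes, with a median of 0.019. EHF and ELF3, ETS factors of epithelia, rose with log2 fold changes of 0.35 and 0.53, whereas KLF4 and GRHL3 fell with -1.15 and -0.91. The list therefore did not move one way.

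Most mesenchymal genes had too few reads to test. Of 19, 6 passed the filter and 10 others were listed below it. Of the 6, 2 were lower (33.3%, against 16.5% of all genes) and 0 higher (against 17.3%). TNC, the matrix protein tenascin-C, held most of the 265 to 283 CPM of the whole list in control and fell from 221.5 ± 8.27 to 128 ± 6.29 CPM (SD, n = 3 each; log2 fold change -0.79, adjusted p = 8.41e-09, edgeR). COL1A1 fell by 0.18 on the log2 scale (adjusted p = 0.0320), a call lost without control replicates 1 (0.110) and 2 (0.113) and without 25(OH)D replicates 1 (0.123) and 2 (0.0984). Of 10 other EMT transcription factors, 3 were tested and 1 was lower (33.3%, against 16.5% of all genes). The gene was TCF3, whose product binds the E-box and which fell from 98.8 ± 4.15 to 66.8 ± 5.14 CPM (log2 fold change -0.57, adjusted p = 3.48e-06, edgeR). TWIST1 had 2 counts in 1 control library and 0 elsewhere.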

How the data were processed

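Strand-specific mRNA libraries of MDA-MB-453 cells, 3 per group, were sequenced by the study, whose methods call the replicates biological. The authors deposited counts, unnormalised whole-number read totals for each gene, and RPKM values, which equalled the count divided by gene length and library total in every cell (largest relative difference 2.23e-13). The submitters' processing notes name Trimmomatic 0.36, Subread 1.5.1 with featureCounts, edgeR 3.12.1 and GRCh38. The aligner and annotation release are not given in the sources used here. Positions are those of the table of counts.

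For testing, edgeR 4.0.16 under R 4.3.3 was used on the counts, with TMM factors, the default low-count filter, a quasi-likelihood test between the groups, no covariates and Benjamini-Hochberg adjustment over 18183 genes. The code was tested on simulated data. Intervals are 95% intervals from the fit and its degrees of freedom. Alternatives used DESeq2 1.42.0, limma 3.58.1 on log2 RPKM with 1 or 0.1 added, RLE, upper-quartile or no factors, no filter, a block and the omission of each library. For genes below the filter, CPM values entered an exact permutation test (two-sided). Python 3.11.15 with scipy 1.17.1 did the remaining steps. A count of 3 was worth between 0.0720 and 0.0921 CPM, and intervals on counts cover counting error only. No replicates were duplicates (chi-square per gene between 3.85 and 11.2).

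The members and lists were chosen with earlier results of these data known. Named were all 10 members, in each list the 2 genes with the smallest p in each direction among those with an adjusted p under 0.05, genes sharing exon bases with a member, and the 3 genes nearest in pattern to the member with the smallest p. AFDN was listed under its older name. Marker genes, TWIST1, AXIN2, NKD1, PKP4 and JUP were named after their values were seen.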

Additional observations from a re-analysis of the deposited data

How the results depend on the processing

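The 4 genes called higher, the 1 called lower and the 2 not called kept their direction and their side of the threshold in all 105 refits of the 7 genes, which covered other normalizations, no filter, DESeq2, limma, the block, summed overlapping genes and the omission of each library. The count of members beyond the fold limit was 2, but 0 with limma on log2(RPKM + 1) and 1 on log2(RPKM + 0.1), where the added constant shrinks changes of genes with low values: ZEB1 had 0.25 and 0.80 there, and CDH2 -0.78 and -1.41. Without the filter it was 3, SNAI2 being added. Companion genes called higher were 17, against 11 under both limma settings, and between 13 and 19 with each library left out, when between 15 and 19 were lower. For the 22 companion genes named by smallest p, 22 of 308 refits lost the call, all for BTRC, FBXW11, PYGO2 and COL1A1, and 0 reversed.

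Same-numbered replicates did not deviate together (correlation across genes between -0.072 and -0.012). Differently numbered ones gave values between -0.016 and 0.063. With 3 libraries per group this check cannot show whether libraries were handled in pairs. With the replicate block, 4 members were higher and 1 lower, and 3057 genes were higher and 2896 lower, against 3138 and 3004. PYGO2 and COL1A1 had adjusted p of 0.0549 and 0.0511 there. Depth limits SNAI1, SNAI2, ZEB2 and VIM, and with 3 libraries per group no single-gene permutation test can go below 0.1.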
